A study of Mus musculus with 12 samples.

Results

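The 39 genes described here mark thymocytes, mature T cells and the epithelium of the thymus. They were chosen by symbol, with earlier results of these data known. All 39 have a row among the 25284 genes of the count table. The table comes from RNA sequencing of thoracic aorta from 12 male ApoE-/- mice, which lack apolipoprotein E and develop atherosclerosis. All the mice were on a C57BL/6 background, were 18 weeks old and had eaten a high fat diet enriched in cholesterol. Osmotic minipumps under the skin delivered AZ6983, an agonist of the nicotinic receptor α7nAChR, to 6 mice over 8 weeks at a daily dose of 50 µmol per kg, and the other 6 received the cyclodextrin vehicle for the same time. The mice are called C1 to C6 (control) and A1 to A6 (AZ6983). In whole aorta, fewer cells of a type and less RNA per cell cannot be told apart.

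T cells develop in the thymus, a lobed organ that lies in the chest above the heart. Precursors there switch on the recombinase Rag1/Rag2 and the DNA polymerase Dntt (TdT) to assemble T cell receptor genes, pass a checkpoint with the pre-T cell receptor chain Ptcra, and carry both Cd4 and Cd8 before they choose a lineage. Cortical thymic epithelium, which depends on the transcription factor Foxn1 and makes the thymoproteasome subunit Psmb11 and the protease Prss16, presents the peptides on which they are selected. Mature T cells keep the CD3 complex, its kinases and a single coreceptor, and shut off the recombinase. T cells are also found in the wall and the outer layer of atherosclerotic arteries.

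The libraries held 23810036 to 35864666 reads counted on genes, and A4 was the deepest. The sum of 12 aortic wall genes, led by the smooth muscle myosin Myh11, was 13014 to 21775 CPM (counts scaled to the library size with TMM factors) over the mice, with 19357 CPM in A4, so the labelled tissue was present in every library. Apoe itself had 117 to 306 counts in control mice and 214 to 311 in AZ6983 mice, and its log2 fold change was 0.25 (SE 0.198, edgeR adjusted p = 0.649). Library A4, which had been singled out when the genes were chosen, stood apart from the rest. It held 353 genes at 1 CPM or more and at least 4 times the level of the highest other mouse, which is 1.4% of the table. The other 11 mice held 0 to 15 such genes each, with 15 in A3 and 8 in A1. Of the 353, 29 were among the 39 genes described here, which were chosen with earlier results known. That overlap is therefore a description and tests nothing. Fits of the members are given with and without A4, a split set when the genes were chosen and not because of this count.

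**Figure D1:**
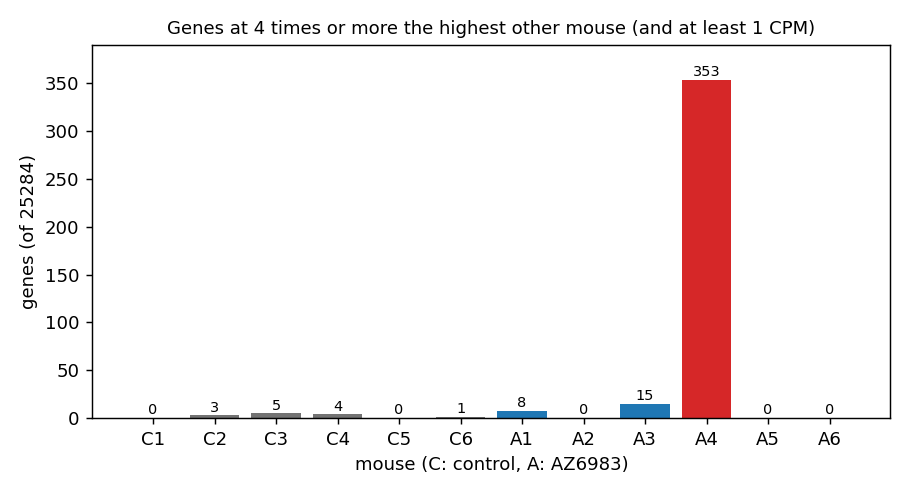
Number of genes, of 25284, whose level in 1 mouse was at least 4 times that of the highest other mouse and at least 1 CPM, by mouse (bars; x axis, mouse; y axis, number of genes). The bar of A4 reaches 353 and no other bar is above 15.

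The promoters of 3 thymus-stage genes, each highest in A4, are shown. Each run is the 250 bases before the RefSeq start on GRCm38.p6, read along the gene's strand. Capitals mark matches, on either strand, to the E-box CANNTG that E proteins bind, to the RUNX motif TGNGGT, and to the TCF motif CTTTGA of Tcf7 and Lef1. Rag1 encodes the catalytic subunit of the recombinase and lies on the minus strand, with its promoter at chr2:101649533-101649782. The promoter of Dntt, whose product adds bases at receptor gene joints, is at chr19:41029025-41029274 on the plus strand, and that of Ptcra, the pre-T cell receptor alpha chain, is at chr17:46763713-46763962 on the minus strand.
Rag1: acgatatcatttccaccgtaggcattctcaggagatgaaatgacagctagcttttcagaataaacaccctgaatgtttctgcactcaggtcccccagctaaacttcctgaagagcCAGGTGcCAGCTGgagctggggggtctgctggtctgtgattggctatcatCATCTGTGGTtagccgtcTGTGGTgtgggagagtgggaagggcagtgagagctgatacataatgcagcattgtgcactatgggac
Dntt: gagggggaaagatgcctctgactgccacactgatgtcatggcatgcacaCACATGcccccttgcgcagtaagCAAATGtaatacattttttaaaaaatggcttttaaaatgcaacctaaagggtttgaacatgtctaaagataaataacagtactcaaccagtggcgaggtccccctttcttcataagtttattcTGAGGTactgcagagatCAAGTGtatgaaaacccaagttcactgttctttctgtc
Ptcra: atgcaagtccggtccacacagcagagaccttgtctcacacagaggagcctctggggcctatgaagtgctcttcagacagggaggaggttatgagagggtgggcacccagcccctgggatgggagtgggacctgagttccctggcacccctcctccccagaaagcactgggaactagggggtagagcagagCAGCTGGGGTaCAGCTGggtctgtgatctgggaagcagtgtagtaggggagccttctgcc
Rag1 held 3 E-boxes and 2 RUNX matches, Dntt held 3 and 1, and Ptcra held 2 and 1. An E-box and a RUNX match overlapped in Rag1 and in Ptcra, and none of the 3 windows held the TCF letters. Of the 39 genes, 30 had a promoter in the RefSeq table, and 26 of these (86.7%) held an E-box, against 66% of 27025 promoters cut to the same length. A RUNX match was found in 17 of the 30 (56.7%, against 39.9%) and a TCF match in 3 (10%, against 14%). These are matches of letters and say nothing of which factor was bound.

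Among the thymus-stage genes, A4 held more than 90% of the recombinase transcripts. Rag1 (chr2:101638252-101649532) had 386, 252, 9, 4, 227 and 92 counts in C1 to C6 and 90, 8, 124, 21669, 139 and 570 counts in A1 to A6. A4 was 27.1 times above A6, the next highest mouse, and held 91.9% of all Rag1 counts. The remaining mice were not at 0 and did not follow treatment: C3, C4 and A2 had fewer than 10 counts each, and without A4 the groups overlapped, with A6 above every control mouse. In CPM the control mice averaged 5.81 ± 5.47 (SD, n = 6), the AZ6983 mice 102 ± 233 (SD, n = 6), and the AZ6983 mice other than A4 7.08 ± 8.18 (SD, n = 5).

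Dntt (chr19:41029275-41059525) followed Rag1 mouse by mouse. It had 103, 77, 1, 0, 53 and 26 counts in C1 to C6 and 27, 3, 42, 5310, 39 and 136 in A1 to A6, so that A4 was 27.9 times above A6 in CPM. Rag2, the partner subunit of the recombinase, had 592 counts in A4, while the control mice had 0 to 19 and the other AZ6983 mice 0 to 13. Ptcra had 76 counts in A4 and 0 to 3 in every other mouse. Themis, a signalling protein that thymocytes need for positive selection, was at 106 CPM in A4, between 0.0372 and 3.04 CPM in the control mice (median 1.62) and between 0.719 and 4.21 CPM in the other AZ6983 mice. In Rag1, Rag2, Dntt and Themis A4 lay 23.8 to 27.9 times above the next mouse, and for Ptcra the counts elsewhere were too few to give a ratio.

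Cd1d1, which presents lipids to NKT cells and is carried by thymocytes but also by other cell types, did not share the pattern. Control mice C1 to C6 had 49.2, 62.1, 43.6, 45.3, 52.1 and 35.2 CPM, and A1 to A6 had 40.4, 45.9, 52.4, 48.8, 79.0 and 61.4 CPM. A4 lay in the middle of these levels, with 10.7% of the counts. Cd1d1 has a close paralog, Cd1d2, and reads that align to both may be missing from either. Because it made up most of the thymus-stage sum in the other mice, sums are given below without it, a choice made after its values were seen.

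The thymic epithelium genes had almost no counts outside A4. Prss16 had 2530 counts in A4 and 0 to 2 in each of the other 11 mice, Psmb11 had 469 against 0 or 1, and Foxn1 had 53 against 0 or 1. All 3 are known as genes of thymic epithelial cells rather than of T cells. Together they gave 3052 counts in A4, and at most 2 in any other mouse. The counts elsewhere were too few to give a ratio.

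**Figure D2:**
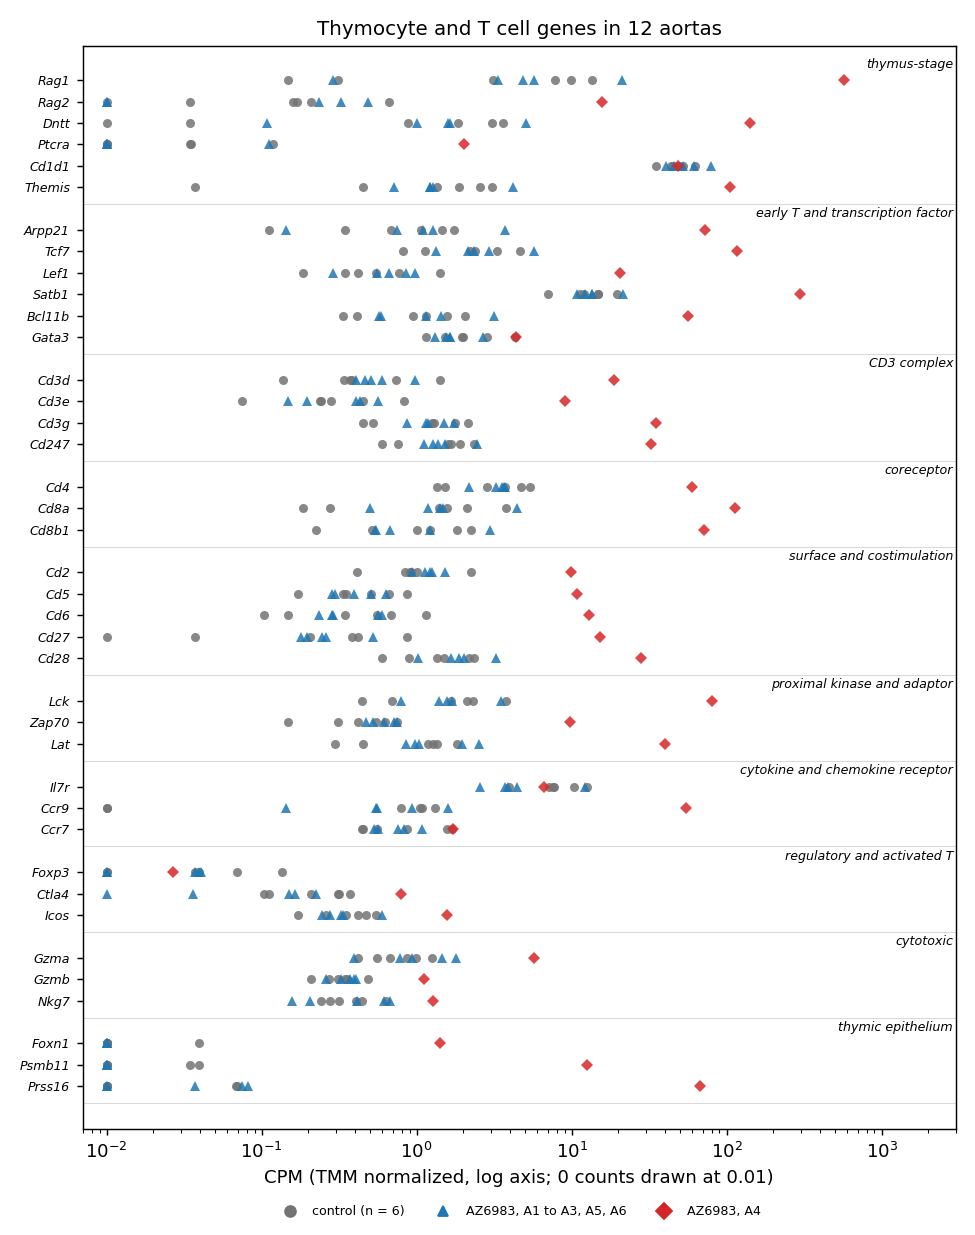
Level of each of the 39 genes in each of the 12 aortas (x axis, CPM on a log axis, with 0 counts drawn at 0.01; rows, genes by group; grey circles, 6 control mice; blue triangles, 5 AZ6983 mice; red diamond, A4). A4 is the highest mouse for 36 genes, while for Cd1d1 and Il7r it lies inside the range of the others and for Foxp3 it has 1 count.

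The transcription factors of the T lineage were far higher in A4 than elsewhere, apart from Gata3. Tcf7 (TCF1), which starts the T cell programme, was at 117 CPM in A4, at 0.819 to 4.66 CPM in control mice (median 2.30) and at 1.33 to 5.74 CPM in the other AZ6983 mice. Bcl11b, which commits precursors to the T lineage, was at 56.7 CPM in A4, at 0.335 to 2.06 CPM in control mice (median 1.05) and at 0.575 to 3.17 CPM in the other AZ6983 mice. The chromatin organiser Satb1 had the highest level of this group outside A4, with 7.07 to 19.5 CPM in control mice (median 13.4), 10.8 to 21.3 CPM in the other AZ6983 mice and 297 CPM in A4. In each of these genes A4 lay 13.9 to 20.4 times above A6, which was the next highest mouse. Lef1, a partner of Tcf7, was 14.3 times above its next mouse, C2, with 20.4 CPM in A4 against 0.186 to 1.42 CPM in the control mice and 0.288 to 0.981 CPM in the other AZ6983 mice. Arpp21, a cAMP-regulated phosphoprotein, was at 72.4 CPM in A4, at 0.112 to 1.74 CPM in control mice and at 0.144 to 3.73 CPM in the other AZ6983 mice. Gata3, which the T cell lineage needs and which other cells also use, was at 4.39 CPM in A4 and at 4.31 CPM in C3. Its levels in the remaining control mice went down to 1.14 CPM and those of the other AZ6983 mice lay between 1.31 and 2.67 CPM, so A4 did not stand out.

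All 4 CD3 chains, which carry the signal of the T cell receptor, were highest in A4, 10.99 to 16.4 times above the next mouse. Cd3g had 1.78, 2.13, 0.448, 0.521, 1.25 and 1.29 CPM in C1 to C6 and 1.19, 1.51, 0.862, 35.1, 1.14 and 1.75 CPM in A1 to A6. Without A4, the AZ6983 mice lay inside the control range. Cd3d was at 18.8 CPM in A4, at 0.138 to 1.42 CPM in the control mice and at 0.409 to 0.969 CPM in the other AZ6983 mice. Cd247, the zeta chain, was at 32.6 CPM in A4, at 0.595 to 2.33 CPM in control mice (median 1.63) and at 1.11 to 2.46 CPM in the other AZ6983 mice. Cd3e had 343 counts in A4, 2 to 21 in control mice and 4 to 15 in the other AZ6983 mice. Each chain was detected in every mouse, with the lowest count, 2, for Cd3e in C4.

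The coreceptors that bind MHC class I stood further above the other mice in A4 than the one that binds class II. Cd8a had 2.13, 3.76, 0.276, 0.186, 1.56 and 1.39 CPM in C1 to C6 and 1.19, 0.503, 1.41, 112.5, 1.47 and 4.44 CPM in A1 to A6. Cd8b1 had 71.2 CPM in A4, 0.223 to 2.25 CPM in the control mice and 0.539 to 2.98 CPM in the other AZ6983 mice. A4 lay 25.4 and 23.9 times above the next mouse in these genes. Cd4 had 2.86, 4.70, 1.35, 1.52, 3.71 and 5.37 CPM in C1 to C6 and 3.56, 3.74, 3.25, 60.0, 2.17 and 3.65 CPM in A1 to A6, and A4 was 11.2 times above C6. Cd4, which some macrophages and dendritic cells also carry, made 45.7% of the summed counts of Cd4 and Cd8b1 in A4 (95% exact binomial interval 44.3% to 47.1%), 55.1% in A6 (47.4% to 62.5%) and 61.2% to 87.4% in the other 10 mice. The intervals cover counting error only.

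The surface and costimulatory receptors differed more among themselves. Cd27, of the TNF receptor family, had 569 counts in A4, 0 to 22 in control mice and 5 to 14 in the other AZ6983 mice. Cd5 and Cd6, which tune receptor signalling, were at 10.8 and 12.9 CPM in A4 and at most at 0.870 and 1.15 CPM elsewhere, in both cases in C2. The costimulatory receptor Cd28 was at 28.1 CPM in A4, 8.61 times above A1. Cd2, an adhesion molecule of T and NK cells, stood least apart, with 9.84 CPM in A4 against 2.25 CPM in C2, a ratio of 4.37, and A4 held 52.6% of its counts.

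The genes of proximal signalling stood apart in A4 about as far as the CD3 chains and coreceptors. Lck, the kinase bound to Cd4 and Cd8, was at 80.4 CPM in A4, at 0.446 to 3.79 CPM in control mice (median 1.90) and at 0.791 to 3.51 CPM in the other AZ6983 mice. Lat, the adaptor that Zap70 phosphorylates, was at 39.8 CPM in A4 and at most at 2.53 CPM in another mouse, A6. Zap70 was at 9.79 CPM in A4, at 0.149 to 0.751 CPM in control mice and at 0.470 to 0.746 CPM in the other AZ6983 mice. A4 was 21.2, 15.7 and 13.0 times above the next mouse in Lck, Lat and Zap70.

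The cytokine and chemokine receptors differed, with a thymic one apart from the rest. Ccr9, which follows the chemokine Ccl25 into thymus and gut, had 2050 counts in A4 and 0 to 43 elsewhere, a ratio of 34.0 to A6 in CPM and the largest among the members with more than 3 counts in another mouse. Ccr7, which guides T cells and dendritic cells to lymph nodes, was at 1.73 CPM in A4 and at 1.70 CPM in C6. Il7r, the interleukin 7 receptor that double-positive thymocytes largely lose, had 7.15, 7.75, 3.93, 7.55, 12.6 and 10.3 CPM in C1 to C6 and 4.46, 12.2, 3.88, 6.60, 2.57 and 3.69 CPM in A1 to A6. A4 was in the middle for Il7r, and A3, A5 and A6 were below every control mouse. Il7r made 15.8% of the summed counts of Cd3g and Il7r in A4 and 67.8% to 93.5% in the other mice. Il7r did not follow Cd3g closely there, with 14 counts of Cd3g and 203 of Il7r in C4 and 47 and 99 in A6. Which cells the Il7r counts came from was not tested.

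Genes of regulatory, activated and cytotoxic T cells were low in all libraries. Foxp3, the regulatory T cell factor, had 0 to 4 counts in every mouse, with 1 in A4. Ctla4, an inhibitory receptor, had 30 counts in A4, 3 to 11 in control mice and 0 to 6 in the other AZ6983 mice. Icos, a costimulator, had 59 counts in A4 and 5 to 16 elsewhere. Gzma, a granzyme of cytotoxic T and NK cells, was at 5.69 CPM in A4, 3.19 times above A1. Gzmb, another granzyme, had 42 counts in A4 and 6 to 13 elsewhere, and Nkg7, a protein of cytotoxic granules, had 48 in A4 and 4 to 18 elsewhere. In these 6 genes A4 was less than 4 times the next mouse, or had no excess.

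Per kilobase of exon, the order of levels within A4 was led by the thymus-stage genes Rag1 and Dntt, but the others of that list were lower. Rag1 was at 87.2 CPM per kb in A4, Dntt at 66.3, Cd8b1 at 48.0 and Tcf7 at 44.5 CPM per kb. Cd8a was at 35.9, Lck at 34.7, Cd3g at 34.3, Lat at 32.0, Prss16 at 29.3, Cd1d1 at 25.1 and Cd4 at 19.3 CPM per kb. Of the remaining thymus-stage genes, Themis was at 18.8, Rag2 at 4.60 and Ptcra at 1.58 CPM per kb. In the median of the other 11 mice the order was different. Cd1d1 led with 25.3 CPM per kb, followed by Il7r at 2.02, Cd3g at 1.22, Satb1 at 1.17 and Cd4 at 1.15 CPM per kb, with Rag1 at 0.735 CPM per kb. The levels in A4 come from 1 library and have no error, and the mice behind the medians differed widely in Rag1.

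Summed over members, the thymus-stage genes without Cd1d1 were at 841 CPM in A4, at 0.186 to 20.3 CPM in the control mice (9.17 ± 8.32, SD, n = 6) and at 1.11 to 31.1 CPM in the other AZ6983 mice (10.9 ± 11.7, SD, n = 5). With Cd1d1 the sums were 890 CPM in A4, 40.8 to 78.4 CPM in the control mice and 46.0 to 92.5 CPM in the other AZ6983 mice. The 30 other T cell genes summed to 1187 CPM in A4, 27.0 to 76.2 CPM in control mice (49.4 ± 18.3, SD, n = 6) and 41.4 to 72.9 CPM in the other AZ6983 mice (49.8 ± 13.2, SD, n = 5). The 39 genes took 0.226% of the gene counts of A4 and 0.00727% to 0.0164% of those of the other mice. The thymus-stage sum without Cd1d1 was 0.709 of the other T cell sum in A4. That ratio was 0.427 in A6 and 0.384 in C1, between 0.0953 and 0.229 in C2, C5, C6, A1, A3 and A5, and at 0.0272, 0.00689 and 0.0251 in C3, C4 and A2. High and low values of this ratio were found in both groups. With Cd1d1 kept in the thymus-stage sum, the order changed and A4 was among the lowest mice. The ratio was then 0.7498 in A4, 0.7008 in C6 and between 0.9597 (A1) and 2.121 (A5) in the remaining mice. The top place of A4 therefore depends on leaving out Cd1d1, a choice made after its values were seen.

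The share of Dntt beside Rag1 was close to that of A4 in the mice that had enough counts to show it. Dntt made 19.7% of the summed Rag1 and Dntt counts in A4 (95% exact binomial interval 19.2% to 20.2%), 19.3% in A6 (16.4% to 22.4%) and 18.9% to 25.3% in the other 7 mice with 90 or more Rag1 counts, and the interval of each of these 8 mice includes the share of A4. Pooled over the 11 mice other than A4, 1901 counts of Rag1 came with 507 of Dntt, where the ratio in A4 gives 466. The same sums were 62 and 51.9 for Rag2, 8 and 6.67 for Ptcra and 487 and 348 for Themis. The share of Themis beside Rag1 was 15.5% in A4, and the intervals of C2 (18.9% to 28.4%), C6 (22.6% to 38.9%) and A1 (19.2% to 35.6%) lay above it. Those of the rest of these 8 mice included it. The intervals of Cd8a in C2, C6 and A1 also lay above the share in A4, as did that of Rag2 in C1. In the mice with fewer Rag1 counts, the intervals of Themis and Cd8a in C3 and A2 lay above the shares in A4. That of Cd8a in C4 did as well. The epithelial genes had a far lower share beside Rag1 than in A4. Prss16 had 9 counts over the 11 mice other than A4 where the ratio in A4 gives 222, and Psmb11 had 2 where it gives 41.1. In A6 alone, Prss16 made 0.350% of the Rag1 and Prss16 counts (0.0424% to 1.26%), against 10.5% in A4 (10.1% to 10.8%). In the 8 mice with 90 or more Rag1 counts, thymocyte transcripts were found with few or none of the epithelial ones. In C3, C4 and A2 the ratio in A4 gives only 1.05, 0.467 and 0.934 counts of Prss16. Its absence there shows nothing.

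**Figure D3:**
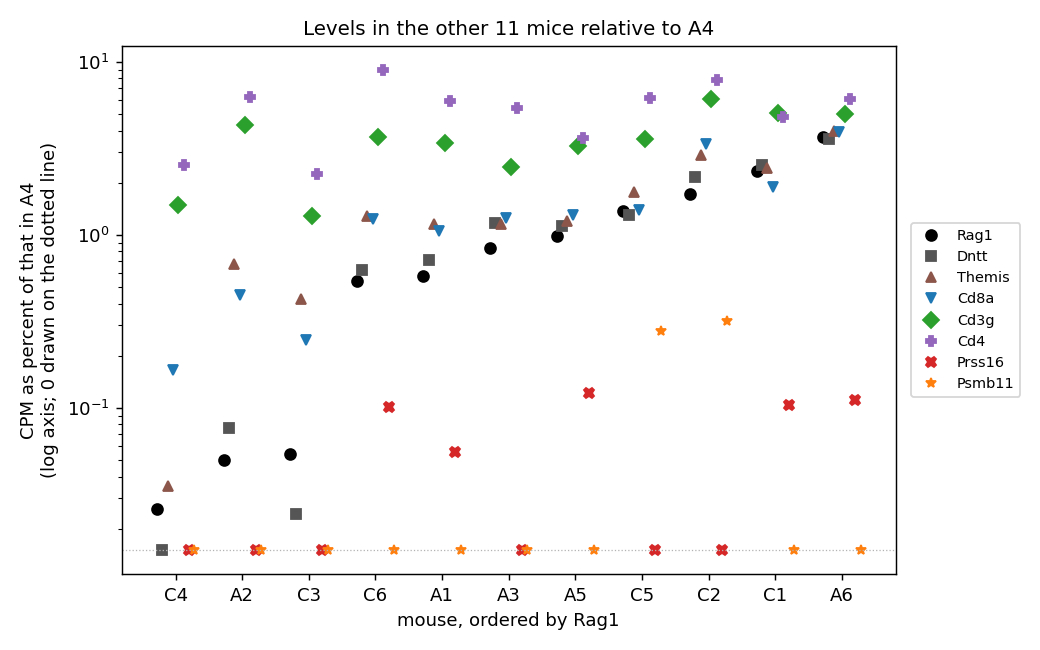
Level of 8 genes in each of the other 11 mice as a percentage of the level in A4 (x axis, mice ordered by Rag1; y axis, percent on a log axis, with 0 drawn on the dotted line; symbols, genes). Rag1 runs from 0.03% to 3.69%, with Dntt close to it in all but the lowest mice. Cd3g (1.28% to 6.09%) and Cd4 (2.24% to 8.96%) vary less, and Prss16 does not exceed 0.12%.

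In the comparison of all 6 AZ6983 with all 6 control mice, 22 of the 28 members that passed the filter on low counts were higher at an unadjusted p under 0.05, against 7.38% of the 15857 genes tested, and none of the 28 passed 10% FDR by the edgeR quasi-likelihood test, as none of all genes did (0% called). By voom with sample quality weights, on the same 12 mice, none of the 28 was higher at an unadjusted p under 0.05. The other 11 members (Rag2, Ptcra, Cd3e, Cd27, Foxp3, Ctla4, Icos, Gzmb, Foxn1, Psmb11 and Prss16) had enough counts in too few mice for the filter. Some of them had many counts in A4 alone, such as Prss16 with 2530 there and at most 2 elsewhere. The 28 that passed also passed it without A4. The log2 fold changes of the 22 were 1.23 to 4.14. Rag1 had a log2 fold change of 4.14 (SE 1.56, edgeR adjusted p = 0.450), Cd8a of 3.72 (SE 1.35, adjusted p = 0.450), Cd3g of 2.49 (SE 0.977, adjusted p = 0.454) and Cd4 of 1.98 (SE 0.845, adjusted p = 0.474). Cd1d1 was at 0.19 (SE 0.163, edgeR adjusted p = 0.673) and Il7r at -0.56 (SE 0.360, adjusted p = 0.579). No member was lower at an unadjusted p under 0.05 by edgeR, where 2.81% of all genes were. Il7r was lower at that threshold by voom with quality weights (log2 fold change -0.77, unadjusted p = 0.0385, adjusted p = 0.299) and by edgeR without A2 (log2 fold change -0.96, unadjusted p = 0.00628, adjusted p = 0.513). The median log2 fold change was 3.82 over the 4 thymus-stage genes tested, 2.28 over the other T cell genes tested and 0.01 over all genes, and by voom with quality weights it was 1.79 and 0.89 for these groups of members. In 0 of the 39 genes did the groups separate without overlap, against 0.41% of the genes tested.

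Without A4, the members showed no difference between 5 AZ6983 and 6 control mice that passed a threshold. None of the 28 tested members had an unadjusted p under 0.05 by edgeR, where 7.04% of all genes were higher and 2.45% lower, and none passed 10% FDR (0% called). Rag1 had a log2 fold change of 0.28 (SE 0.988, edgeR adjusted p = 0.945), Cd8a of 0.22 (SE 0.691, adjusted p = 0.936), Cd3g of 0.06 (SE 0.379, adjusted p = 0.970) and Cd4 of 0.01 (SE 0.336, adjusted p = 0.994). The standard errors set what could be seen: they were smallest for Cd1d1 (log2 fold change 0.22, SE 0.180) and near 1 for Rag1 and Dntt. The highest log2 fold change was that of Arpp21 at 0.63 (SE 0.702, edgeR adjusted p = 0.781) and the lowest that of Il7r at -0.62 (SE 0.389, adjusted p = 0.637). The median was 0.24 over the thymus-stage genes, 0.10 over the other T cell genes and -0.00 over all genes. With no filter, all 39 members could be fitted, and none had an unadjusted p under 0.05 without A4. DESeq2, the tool of the study, called 92 of 17592 genes (0.523%) over the 12 mice and none of the members, 29 of which it gave no p, as it does for genes with an extreme count in a single sample. Over the 12 mice, 9 members had an adjusted p by DESeq2. Without A4 it gave a p to all 39 and an adjusted p to 34, and the lowest adjusted p of a member was 0.623.

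**Figure D4:**
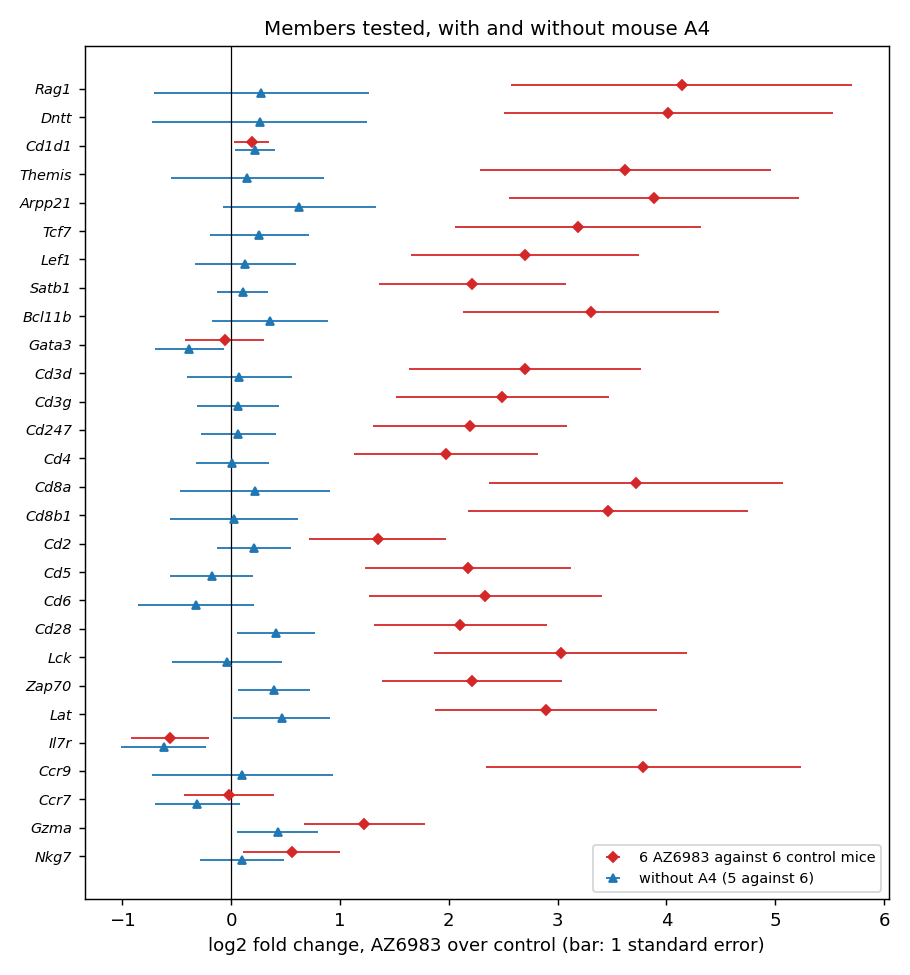
Log2 fold change of AZ6983 over control for the 28 members tested (x axis; rows, genes; bars, 1 standard error; red, 6 against 6 mice; blue, without A4). The red values reach 4.14 for Rag1, while the blue values lie between -0.62 and 0.63.

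Other T cell and thymus genes were high in A4 along with the members. All 19 genes of a list of other T cell receptor signalling genes were highest in A4, 13 of them by 4 times or more, at 1 CPM or more, and their sum was 477 CPM in A4, 26.6 to 59.1 CPM in control mice and 40.3 to 53.2 CPM in the other AZ6983 mice. Thy1 led the list. The receptor constant segments Trbc1, Trbc2 and Trac were at 55.2, 105.6 and 20.1 CPM in A4 and at most at 2.27, 4.14 and 1.66 CPM elsewhere. Trbc1 and Trbc2 are near copies of each other, and the split of reads between them is uncertain. Among the rows of single T cell receptor V and J segments, a set looked at after other values were seen, 156 of 165 were highest in A4. A4 had 3902 counts on 164 of these rows, while the other mice had 30 to 156 counts on 16 to 73 rows. In a list of 17 other thymocyte genes, led by Ets2, 14 were highest in A4 and 6 of those at 1 CPM or more by 4 times or more, such as Myb at 69.3 CPM against at most 2.98 CPM. In a list of 15 other thymic epithelium genes, led by Ctsl, 11 were highest in A4 and 7 of those at 1 CPM or more by 4 times or more, such as the chemokine Ccl25 at 40.3 CPM against at most 2.46 CPM. Aire, of medullary epithelium, was under 1 CPM in A4, with 28 counts, and had 0 or 1 elsewhere.

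Outside the member list, the 10 genes furthest apart in A4 included genes of thymic epithelium. Slc46a2, a transporter of thymic stroma, had 189 counts in A4 and 0 in all other mice, at least 41.0-fold higher than a floor of 3 counts per library. Tbata, of thymic epithelium, had 1154 counts in A4 and 0 to 2 elsewhere, and the keratins Krt5 and Krt17 had 252 and 244 with at most 2 elsewhere. Fcgbp had 940 counts with at most 5 elsewhere, and Crip3 had 250 with at most 5. Chrna9, a nicotinic acetylcholine receptor subunit, had 293 counts in A4 and 0 to 5 elsewhere. The remaining genes of the leading 10 were the light chain segment Igkv4-74 (195 counts, at most 1 elsewhere) and the unnamed genes Gm37548 and Gm15340 (118 and 108 counts, at most 2 elsewhere).

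Lists of other cell types differed in whether they were high in A4. All 15 dividing cell genes, led by Mki67, were highest in A4, 13 of them by 4 times or more, and their sum was 468 CPM in A4, 43.1 to 76.7 CPM in control mice and 51.6 to 70.3 CPM in the other AZ6983 mice. Of 19 peripheral and effector T cell genes, led by S1pr1, 13 were highest in A4 and 3 by 4 times or more, and the sum of 250 CPM lay near the 240 CPM of the next mouse. That sum rests largely on S1pr1, Cd44 and Klf2, at 87.9, 43.7 and 29.8 CPM in A4. None of these was highest in A4, so the sum says little about the other genes of the list. No B cell gene of 12 was highest in A4. The B cell sum, led by Ighm, was 138 CPM in A4, 29.6 to 137 CPM in control mice and 41.6 to 180 CPM in the other AZ6983 mice, so A4 lay inside the range of the other mice. None of 10 macrophage genes, led by Lyz2, was highest in A4, whose sum of 917 CPM was lower than that of 9 other mice. The share of reads on no gene was 12.3% in A4, 8.02% to 12.7% in control mice and 11.2% to 14.9% in AZ6983 mice. The part that these cell types and depth had in the values of A4 was not tested.

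By edgeR over all 12 mice, none of the genes of these 11 lists passed 10% FDR. At an unadjusted p under 0.05, 7.38% of all genes tested were higher and 2.81% lower. At that threshold 9 of 13 tested genes of T cell receptor signalling were higher (median log2 fold change 1.78), as were 2 of 15 dividing cell genes (median 1.02), 8 of 16 other thymocyte genes (median 0.73), 2 of 9 other thymic epithelium genes (median 0.23) and 5 of 12 peripheral T cell genes (median 0.35). The B cell and macrophage genes tested had 0 of 10 each, with medians of -0.29 and -0.02. The 9 dendritic cell genes had 1 higher, Ccr9, which is also a member, and 1 lower (median -0.13). The 3 lymph node stroma genes and the 1 NK cell gene tested had none, and 2 of 12 aortic wall genes were higher (median -0.02). Of the other thymocyte genes 1 was lower, both with and without A4. Without A4 the medians were 0.13 for T cell receptor signalling, -0.07 for dividing cells, 0.06 for other thymocyte, 0.07 for other thymic epithelium and 0.28 for peripheral T cell genes, and those higher at an unadjusted p under 0.05 numbered 1, 0, 2, 0 and 2. Of all genes tested without A4, 7.04% were higher and 2.45% lower. For B cells, macrophages, dendritic cells, lymph node stroma and the aortic wall the medians without A4 were -0.30, 0.03, -0.36, 0.25 and -0.04, with 2 aortic wall genes and no others higher or lower at that threshold.

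**Figure D5:**
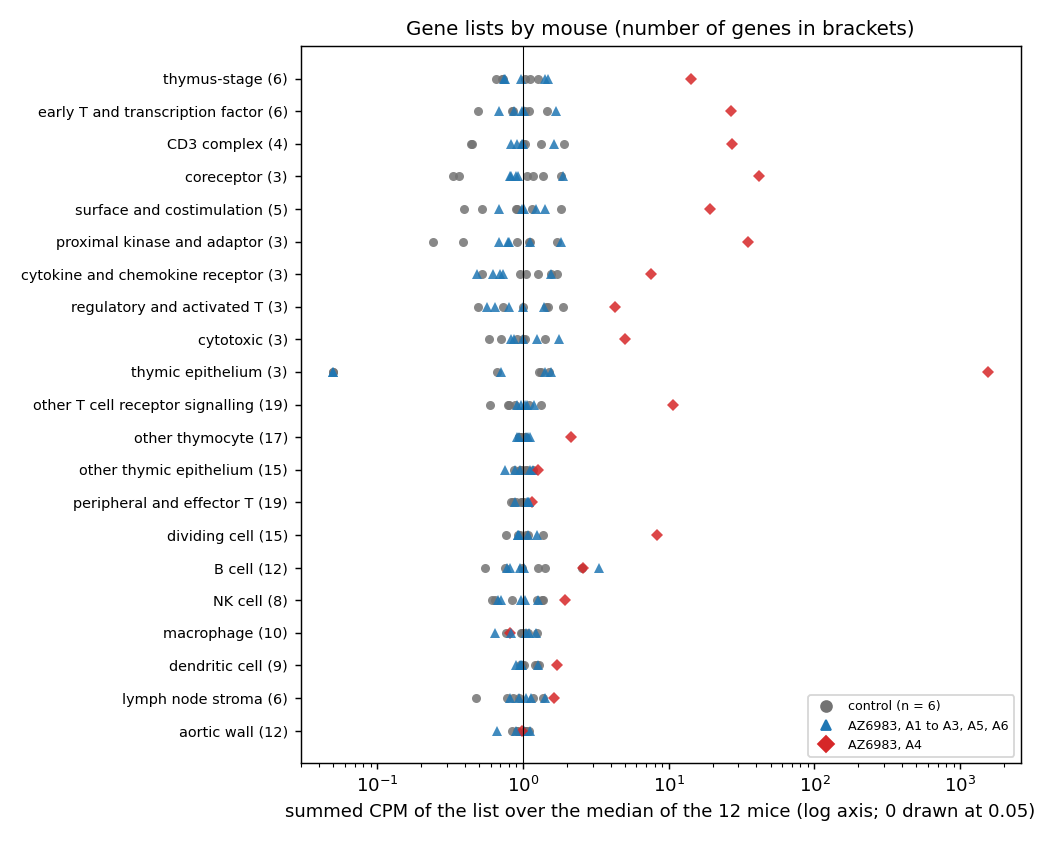
Summed CPM of each gene list in each mouse, divided by the median of the 12 mice (x axis, log scale, with 0 drawn at 0.05; rows, lists with their number of genes; grey circles, 6 control mice; blue triangles, 5 AZ6983 mice; red diamond, A4). A4 lies furthest from the other mice for the thymic epithelium list and 8.07 and 6.10 times above the next mouse for other T cell receptor signalling and dividing cells. It is 1.08 and 1.04 times above it for other thymic epithelium and for peripheral and effector T cells, whose sums are led by Ctsl and S1pr1, neither highest in A4. A4 lies among the other mice for B cells, macrophages and the aortic wall.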

How the data were processed

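RNA was taken from the thoracic aorta of 12 mice, 6 per group. The authors removed ribosomal RNA, made stranded libraries and sequenced both ends by 75 bases. The deposited table holds raw counts per gene symbol, and the submitters' processing notes name CASAVA 1.8.2, STAR 2.5.2b, HTSeq 0.6.1p1 and the build mm10. The annotation and the strand setting of the counting are not given in the sources used here. The 3 rows that name no gene were left out. They held reads on no gene (8.02% to 14.9% per mouse), reads with more than 1 alignment (18.1% to 23.2%) and ambiguous reads (0.606% to 0.698%). Reads from near-identical genes are among those set aside.

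Groups came from the labels, and columns were matched by mouse number. The column used for A1 gives 3 of the 4 digits of its number, which fit no other mouse. No 2 libraries were copies (chi-square of 12.9 to 249.5 per degree of freedom over 66 pairs).

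The main test was the edgeR 4.0.16 quasi-likelihood test in R 4.3.3 (TMM, filterByExpr, no covariate, Benjamini-Hochberg adjustment over 15857 genes, 10% FDR). The standard error of a log2 fold change is its absolute value over the square root of F. The test was checked on simulated counts that had the same dispersion for every gene and no outlying mouse. That check does not show how the test behaves with a library such as A4. CPM used TMM-scaled gene counts, and log2 CPM a prior count of 2. Coordinates are those of RefSeq genes on GRCm38.p6, and lengths are exon unions of GENCODE M21. Intervals are exact (Clopper-Pearson) at 95% and cover counting error only, and a count of 0 was given a floor of 3 counts.

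Alternatives were DESeq2 1.42.0, its size factors in edgeR, voom with quality weights (limma 3.58.1), edgeR's robust fit, no filter, a mean of at least 50 counts, and each mouse left out in turn. Every member was named, and genes outside the list were named for the 10 largest ratios of A4 to the next mouse or for leading a list. Trac, Trbc1, Trbc2, Myb, Ccl25, Aire, Cd44 and Klf2 were chosen after their values were seen. The members and the lists were chosen with earlier results of these data known.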

Additional observations from a re-analysis of the deposited data

Results flagged for a closer look

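In each group of 6 mice, each member's log2 CPM was examined for a highest or lowest mouse set apart from the rest by Dixon's criterion. Of 78 groups of values, 26 had such a mouse, where a mean of about 3.9 is expected by chance. All groups come from the same 12 mice and are not independent, and the members were chosen with earlier results of these data known. The count of 26 is therefore a description and does not test chance. In 25 of the 26 the mouse was A4 at the top of the AZ6983 group. Its log2 CPM was highest for Satb1 at 8.21, Tcf7 at 6.87, Themis at 6.72, Lck at 6.33 and the coreceptor chain Cd8b1 at 6.16. For the epithelial genes it was 6.07 for Prss16, 3.65 for Psmb11 and 0.57 for Foxn1. Cd4 was at 5.91, Bcl11b at 5.83, Ccr9 at 5.77 and Lat at 5.32. The CD3 chains were at 5.13 for Cd3g, 5.03 for Cd247, 4.24 for Cd3d and 3.20 for Cd3e. Cd28 was at 4.82, Lef1 at 4.35, Cd27 at 3.93, Cd6 at 3.70, Cd5 at 3.44, Cd2 at 3.31 and Zap70 at 3.30. Ptcra was at 1.07 and Gzmb at 0.25. Rag1, Rag2, Dntt, Cd8a and Arpp21 had no mouse set apart by this criterion, and the other AZ6983 mice ranged widely in them. The remaining value was Foxn1 in C2, at -3.18 log2 CPM, which is 1 count where the other control mice had none. The cause of the A4 values was not tested.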

How the results depend on the processing

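No member passed 10% FDR under any alternative. The count of genes past 10% FDR over the whole table was 0 by edgeR, 92 by DESeq2, 4 by voom with quality weights and 67 by DESeq2 without A4. It was 0 to 27 when each mouse was left out of the edgeR fit, with 27 without A5, 1 without A1 and 1 without C6. The cause of these differences was not tested. The median log2 fold change was 0.24 (without A4) to 4.14 for the thymus-stage genes and 0.10 (without A4) to 2.57 for the other T cell genes when each mouse was left out. At 2 times the next mouse in place of 4, 576 genes stood apart in A4, 105 in C3, 41 in A3 and 0 to 14 in each of the other mice. By voom with quality weights no member was higher at an unadjusted p under 0.05, against 22 by edgeR, and the cause was not tested. Ccr7 turned to 0.060 under voom. With each mouse left out, the log2 fold change was -0.31 to 0.24 for Ccr7, -0.38 to 0.21 for Gata3, -0.18 to 2.40 for Cd5, -0.33 to 2.74 for Cd6 and -0.040 to 3.35 for Lck. With no filter and without A4, a setting chosen after seeing the data, 15 of the 39 members were below 0 by edgeR. Members that had been above 0 with A4 were now at -0.012 for Rag2, -0.35 for Ptcra, -0.010 for Cd3e, -0.19 for Cd5, -0.34 for Cd6, -0.17 for Cd27, -0.049 for Lck, -0.065 for Icos, -1.21 for Foxn1 and -1.85 for Psmb11. The rest were below 0 with A4 as well, and without it lay at -1.04 for Ctla4, -0.93 for Foxp3, -0.63 for Il7r, -0.39 for Gata3 and -0.32 for Ccr7. The smallest unadjusted p of a member in this edgeR fit was 0.0961, for Ctla4. Over all settings, 25 fold changes of members changed direction and 652 values were classed as unchanged. For a member, unchanged meant only the same direction and not newly past 10% FDR, which no member passed in any setting. Its size could still differ widely, as for Rag1 at 4.14 and, without A4, at 0.28. For counts of genes it meant within a fixed fold, and for medians within the spread among mice of a group. No paired analysis was possible because the mouse numbers of the 2 groups are not shared.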

Other observations

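In 3 lists of other cell types A4 had the highest sum, though it was the highest mouse for only some of their genes. Of 8 NK cell genes, led by Klrk1, 3 were highest in A4 and none by 4 times or more, with a sum of 5.06 CPM against 1.60 to 3.60 CPM in control mice and 1.76 to 3.34 CPM in the other AZ6983 mice. Of 9 dendritic cell genes, led by Bst2, only Ccr9 was highest in A4, and this gene is also a member of the T cell list. Of 6 lymph node stroma genes, led by Ccl21a, 3 were highest in A4 and none by 4 times or more, with a sum of 37.4 CPM against 10.8 to 31.0 CPM in control mice and 18.5 to 32.2 CPM in the other AZ6983 mice.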
